A study of Mus musculus with 18 samples.

Results

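The genes described here are 33 genes that absorptive cells of the small intestine use to digest and take up food. They were taken by name from a list, and all 33 of the 33 names were found among 19938 genes measured by probe sets with a single gene symbol. They comprise 5 peptidases, 5 disaccharidases and related brush border enzymes (intestinal alkaline phosphatase, Alpi, is counted with them), 4 structural proteins of the microvilli, 11 genes of lipid and vitamin A handling, 6 transporters, and Khk and Amn, which serve fructose metabolism and vitamin B12 uptake. Each of the 33 had 1 probe set.

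The study measured RNA from 18 mouse samples on 1 single-colour array each. It used reprogrammed colon tumour cells (RTCs), which are colon tumour cells brought to a pluripotent state with the methods used for induced pluripotent cells, and asked how Apc mutation and an induced mutant beta-catenin act in different cell types. Apc is a negative regulator of the Wnt pathway, and the Min allele truncates it. 4-Hydroxytamoxifen (4-OHT) is commonly used to switch on recombinases fused to an oestrogen receptor domain, and doxycycline (dox) to switch on tetracycline-controlled transgenes. The labels used here do not say which allele 4-OHT acts on in these cells.

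The organoids were small intestinal cultures derived from #45, a derivative of RTC line 1, with 1 array after 2 days in 1 uM 4-OHT and 1 array without it. Embryonic fibroblasts (MEFs) derived from #45 had 2 arrays after 2 days in 2 ug/ml 4-OHT and 2 arrays without it. There were 10 pluripotent arrays: RTC lines 1, 2 and 3, the derivatives #45 (of RTC 1) and #9 (of RTC 3), embryonic stem cells (ESCs) with the Apc genotypes Min/Min, Min/+ and +/+, and S33 ESCs with and without dox. S33 MEFs had 1 array with dox and 1 without. Organoids and the #45-derived MEFs thus come from a single derivative, and each treatment arm of the organoids is 1 culture. Medium differed too: organoids grew in Matrigel with EGF, Noggin and R-spondin, which raises Wnt signalling in both arms, and the growth protocol names Min/Min ESCs in an FGF4 medium beside the LIF medium of other ESCs. The labels do not say that replicate arrays are separate cultures, so p-values measure the spread between these arrays only.

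Enterocytes arise from crypt stem cells and mature as they leave the crypt. Their brush border is a carpet of microvilli that carries enzymes for the last step of protein and sugar digestion and transporters for the products. Inside the cell, absorbed fatty acids are bound by small carrier proteins, rebuilt into triglyceride and exported with apolipoproteins as chylomicrons. Transcription factors of the Hnf4, Hnf1 and Cdx families are known to drive many of these genes.

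Levels below are log2 intensities after quantile normalization of all 18 arrays together, on which the median gene of an array lies between 8.20 and 8.36. A level below that median is a dim probe set, not proof that the gene is silent, and levels of different genes are not compared, because probe sets differ in brightness. The labelled cell types carried their markers: the mean of 7 epithelial markers was 13.01 and 12.94 in organoids with and without 4-OHT and at most 8.11 in the 6 MEF arrays, and the mean of 8 pluripotency markers lay between 12.35 and 12.66 on the 10 pluripotent arrays and at most at 7.20 on all other arrays. The organoids also carried stem cell markers, with Lgr5 at 13.02 and 12.59 and Olfm4 at 13.79 and 13.67. Olfm4 was at most 6.78 on the MEF arrays, but Lgr5 was also high in S33 MEFs, at 11.11 with dox and 12.60 without. Immune cell markers averaged 9.70 and 9.75 in the first MEF pair (with and without 4-OHT), against 8.07 and 8.15 in the second. They averaged 8.63, 9.27 and 9.35 in RTCs 1, 2 and 3, against 7.69 to 8.05 in the 3 ESC arrays compared with them below.

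All 33 genes lay above the array median in both organoid arrays, where 47.8% of all genes did. Outside the organoids, between 3 and 9 of the 33 did so on any array. In 31 of the 33 the lower organoid array was above the highest of the other 16 arrays, a pattern that 12.8% of all genes showed. The exceptions were Enpep, whose 4-OHT organoid array at 10.06 was below the Min/Min ESC array at 10.33, and Slc15a1, whose organoid arrays at 9.45 and 9.84 were both below the S33 ESC array with dox at 9.87.

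**Figure D1:**
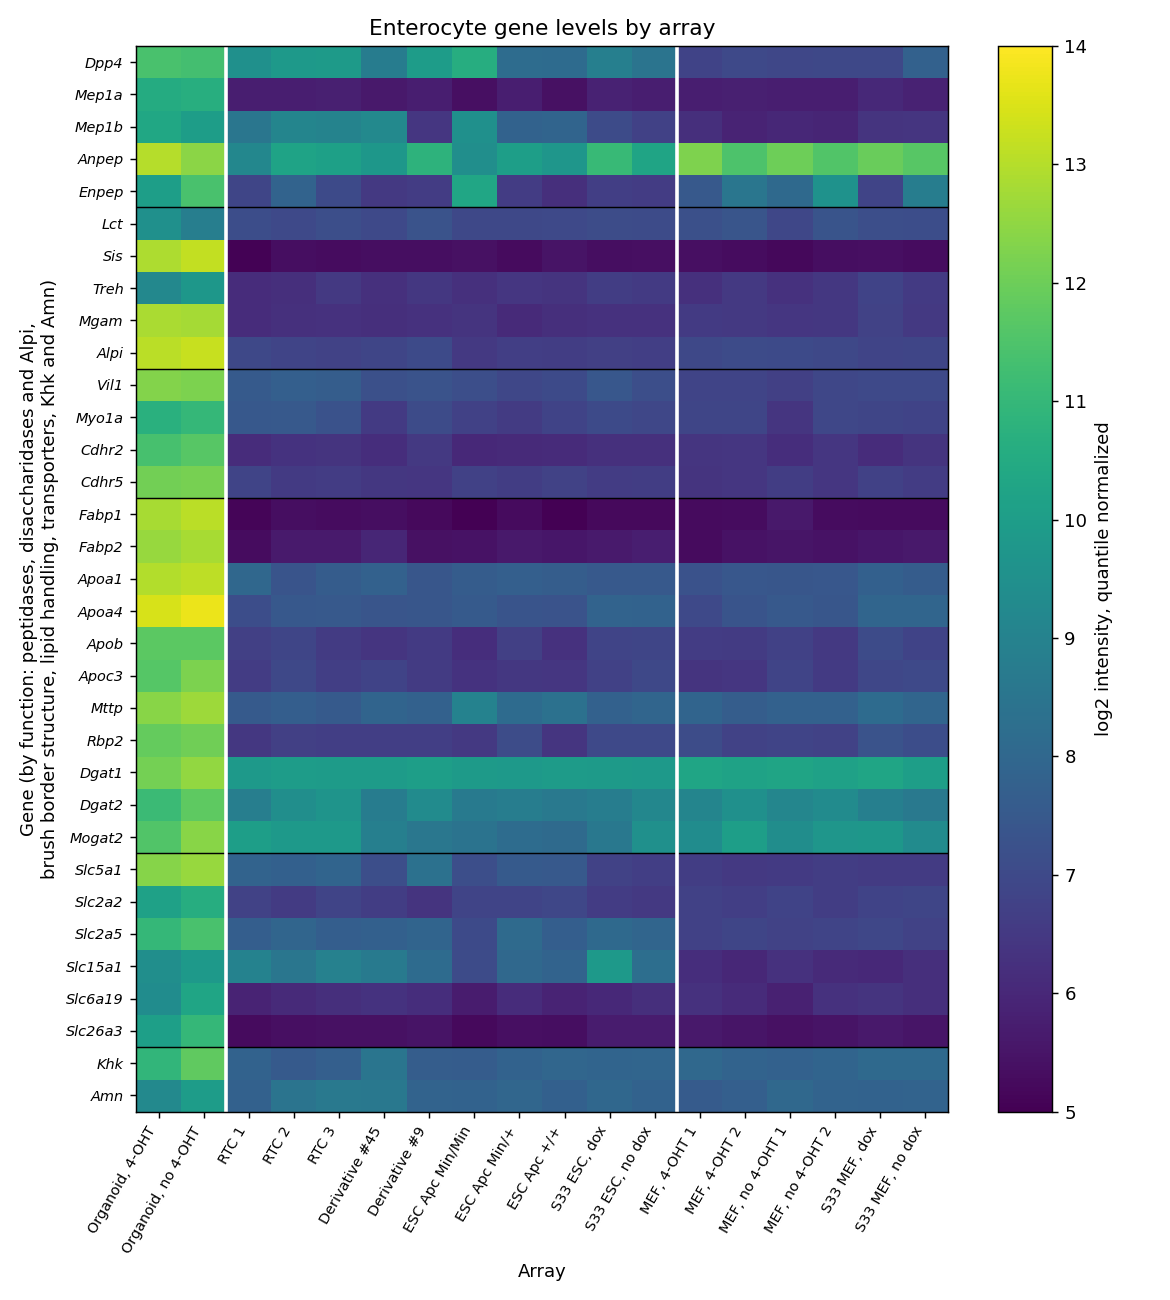
Levels (log2 intensity after quantile normalization, colour scale) of the 33 enterocyte genes (rows, grouped by function with black lines) on each of the 18 arrays (columns; white lines separate organoids, pluripotent cells and MEFs). The 2 organoid columns are bright in all rows, while outside them Anpep, Dgat1, Dgat2 and Mogat2 are the rows that stay above the array median on all MEF arrays.

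Organoids were first set against the #45-derived MEFs, a cell type of the same origin, with 4-OHT as a covariate. All 33 genes were higher in organoids and 0 lower by limma with Benjamini-Hochberg adjustment over all 19938 genes. Among all genes, 24.1% were higher and 23.1% lower. The median log2 difference of the 33 was 4.77, against 0.05 for all genes. The list holds known enterocyte genes and was drawn up with results of these arrays known, so its direction is not independent evidence. Where bulk organoid samples differ from each other, as below with and without 4-OHT, fewer enterocytes and less RNA per enterocyte cannot be told apart.

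Against the derivatives #45 and #9, the pluripotent cells of the same lineage, 32 of 33 were higher in organoids and 0 lower, beside 11.9% of all genes higher and 12.9% lower. The median log2 difference was 4.71, against 0.03 for all genes. Mep1b, at 2.34 ± 0.78 (SE; adjusted p = 0.0721), was the gene that missed the threshold, and its derivative arrays differed widely, at 9.24 in #45 and 6.44 in #9.

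Disaccharidases and alkaline phosphatase had the largest class median against MEFs, 6.17. Sis, the sucrase-isomaltase that splits sucrose and starch fragments, was at 12.88 and 13.16 in organoids with and without 4-OHT, against 5.38 and 5.29 in MEFs with 4-OHT, 5.21 and 5.33 in MEFs without it, and 5.33 and 5.32 in derivatives #45 and #9. Both organoid arrays were far above all others, which were all low, and the difference from MEFs was 7.72 ± 0.12 (SE; adjusted p = 1.17e-06). Mgam, the maltase-glucoamylase that releases glucose from starch products, differed from MEFs by 6.34 ± 0.09 and Alpi, the alkaline phosphatase of the brush border, by 6.17 ± 0.10. Treh, which splits trehalose, was at 9.20 and 9.75 in the organoid arrays, against 6.24 to 6.50 in the #45-derived MEFs. Lct, the lactase of suckling animals, had the smallest difference of the class, 1.98 ± 0.18 (adjusted p = 0.000310), with 9.52 and 8.86 in organoids and 6.91 to 7.38 in the #45-derived MEFs.

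Lipid genes had a class median of 5.13. Fabp1, a fatty acid carrier of liver and intestine, was at 12.82 and 13.08 in organoids with and without 4-OHT, against 5.26 and 5.30 in MEFs with 4-OHT and 5.63 and 5.30 in MEFs without it. The groups did not overlap, and the difference was 7.58 ± 0.12 (SE; adjusted p = 1.17e-06). Fabp2, the intestinal carrier, differed by 7.29 ± 0.10. The apolipoproteins Apoa4 (6.28 ± 0.13), Apoa1 (5.64 ± 0.10), Apoc3 (5.39 ± 0.14) and Apob (5.13 ± 0.11), which coat exported lipid particles, all rose, as did Mttp (4.77 ± 0.12), which loads lipid onto Apob, and Rbp2 (5.10 ± 0.13), the retinol carrier of the enterocyte. Apoa1, Apoc3 and Apoa4 share a cluster on chromosome 9.

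The 3 enzymes of triglyceride synthesis had the smallest differences of the lipid genes. Dgat1, which adds the last fatty acid, was at 12.12 and 12.55 in organoids against 10.15 to 10.30 in the #45-derived MEFs, a difference of 2.11 ± 0.14. Dgat2, with the same reaction, differed by 2.19 ± 0.21 and Mogat2, which acylates absorbed monoglyceride, by 2.33 ± 0.29 (adjusted p = 0.00118). All 3 were above the array median on every MEF array, as 45.1% of all genes were.

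The 4 structural genes differed by 4.08 to 5.65. Vil1, the actin bundler villin, was at 12.33 and 12.21 in organoids with and without 4-OHT, against 6.83 and 6.85 in MEFs with 4-OHT, 6.71 and 6.91 in MEFs without it, and 7.21 and 7.29 in derivatives #45 and #9. It was high in both organoid arrays alone, with a difference from MEFs of 5.45 ± 0.10 (adjusted p = 1.20e-06). Cdhr5 and Cdhr2, protocadherins that link the tips of microvilli, differed by 5.65 ± 0.11 and 5.17 ± 0.13, and Myo1a, the myosin that ties the actin core to the membrane, by 4.08 ± 0.19.

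Among the 6 transporters the differences ran from 3.52 to 5.91. Slc5a1, the sodium-glucose transporter, was at 12.35 and 12.62 in organoids with and without 4-OHT, against 6.65 and 6.50 in MEFs with 4-OHT and 6.54 and 6.62 in MEFs without it, a difference of 5.91 ± 0.11 (adjusted p = 1.20e-06). Slc26a3, a chloride-bicarbonate exchanger, differed by 5.04 ± 0.23, the fructose transporter Slc2a5 by 4.40 ± 0.13, the neutral amino acid transporter Slc6a19 by 3.70 ± 0.27, the glucose transporter Slc2a2 by 3.67 ± 0.13 and the di- and tripeptide transporter Slc15a1 by 3.52 ± 0.13. Against derivatives, Slc15a1 differed by only 1.21 ± 0.27 (adjusted p = 0.0175), since the derivatives were at 8.71 and 8.16, and that call was lost with values as deposited (adjusted p = 0.169).

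Peptidases had differences from 0.89 to 4.83. Mep1a, a meprin subunit, differed from MEFs by 4.83 ± 0.09, Dpp4, which removes N-terminal dipeptides, by 4.45 ± 0.10 and Mep1b, the other meprin subunit, by 4.17 ± 0.13. Anpep, aminopeptidase N, was at 13.01 and 12.42 in organoids with and without 4-OHT, against 12.25 and 11.49 in MEFs with 4-OHT and 12.03 and 11.54 in MEFs without it. The 4 MEF arrays were thus nearly as high as the organoids, and the difference of 0.89 ± 0.27 (adjusted p = 0.0366) was the smallest of the 33; with values as deposited it was 0.58 (adjusted p = 0.0817). Enpep, aminopeptidase A, was at 10.06 and 11.42 in organoids, against 7.53 and 8.54 in MEFs with 4-OHT and 8.09 and 9.58 in MEFs without it. The arrays of each group spread over more than 1 log2 unit without overlap, with a difference of 2.31 ± 0.48 (adjusted p = 0.00953), and that call was lost without either organoid array (adjusted p = 0.103 without the untreated organoids and 0.0550 without the treated ones).

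Khk, which phosphorylates fructose, differed from MEFs by 3.45 ± 0.23 and Amn, which anchors the vitamin B12 receptor, by 1.81 ± 0.14 (adjusted p = 0.000158). Without the first MEF pair, in which immune markers were high, 33 of 33 were still called higher. Of 12 listed further genes of microvillus structure, 10 rose and 0 fell, led by Pls1 (5.08 ± 0.11), an actin bundler, and Myo7b (4.59 ± 0.10), the myosin of the tip links. Of 20 further transporters, 16 rose and 0 fell, and of 7 measured genes of sugar and intermediary metabolism all 7 rose, led by Cps1 (6.63 ± 0.10) and Otc (6.04 ± 0.17) of the urea cycle. Further lipid genes were mixed, with 7 higher and 1 lower of 12 measured, as were further brush border enzymes, with 4 higher and 1 lower of 10. Among 13 measured regulators 9 rose and 2 fell, led by Hnf4g (5.96 ± 0.19) and Hnf4a (5.76 ± 0.11), which bind many enterocyte promoters in the intestine.

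**Figure D2:**
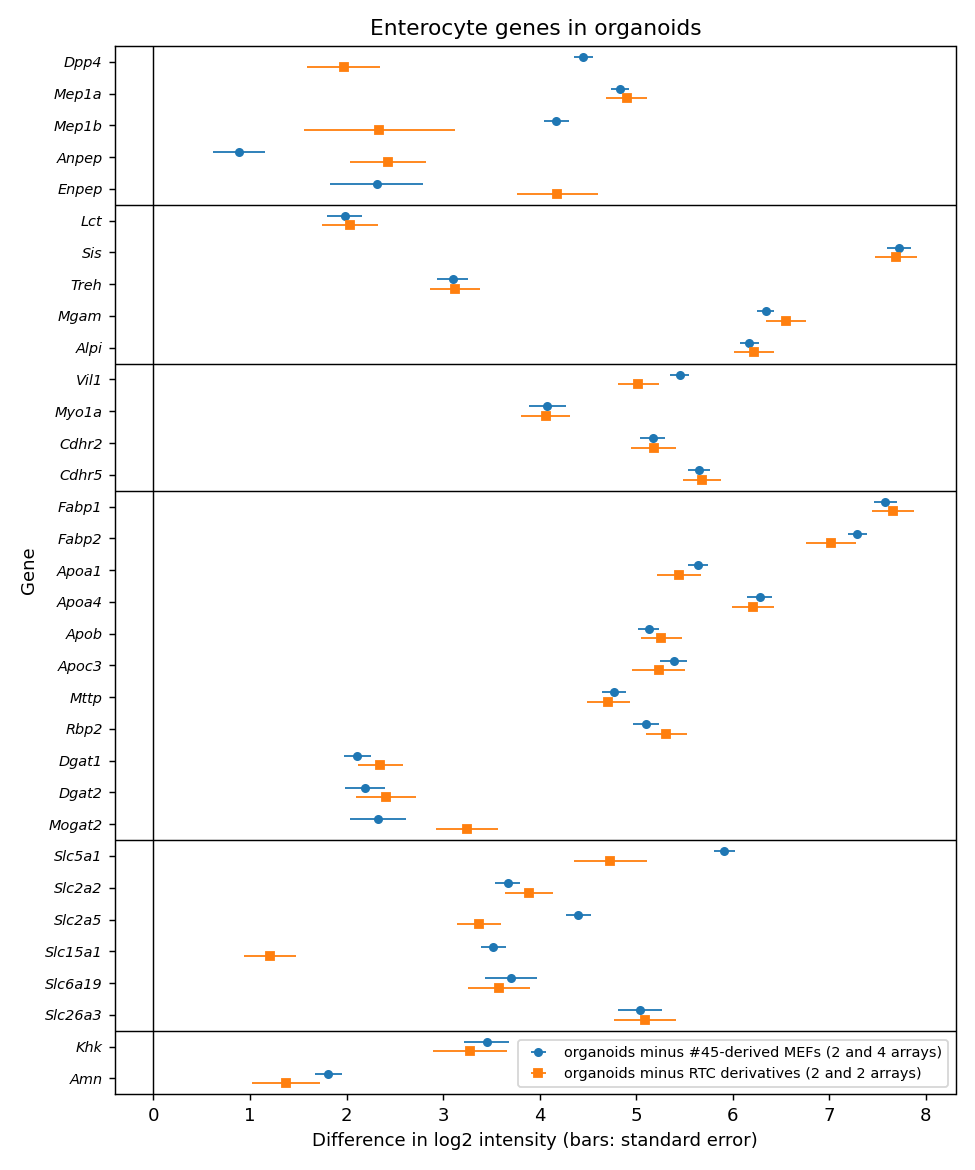
Difference in log2 intensity between organoids and #45-derived MEFs (circles; 2 and 4 arrays) and between organoids and RTC derivatives (squares; 2 and 2 arrays) for each gene, with standard errors as bars. All points lie right of 0; Anpep is lowest against MEFs at 0.89 and Slc15a1 lowest against derivatives at 1.21.

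Since all 33 genes were high together in organoids, their promoters were read. RefSeq's table (build GRCm38.p6) held 28 of the 33; Apoc3, Dgat1, Dgat2, Mogat2 and Mep1b were not matched. The 250 bases before each annotated start are shown 5′ to 3′ on the gene's strand for 4 genes that were high in both organoid arrays, chosen to show 1 match for each of the factor families Cdx, Hnf4 (2 genes) and Hnf1, with the match in capitals. The coordinates are chr3:72967864-72968113 (minus strand) for Sis, chr1:87101607-87101856 (minus strand) for Alpi, chr9:46240594-46240843 (plus strand) for Apoa4 and chr13:54701213-54701462 (plus strand) for Cdhr2.
Sis: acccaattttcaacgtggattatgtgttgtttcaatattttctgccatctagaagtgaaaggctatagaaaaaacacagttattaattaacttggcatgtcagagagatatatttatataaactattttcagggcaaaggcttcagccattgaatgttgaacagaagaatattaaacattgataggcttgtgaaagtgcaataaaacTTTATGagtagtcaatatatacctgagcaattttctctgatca
Alpi: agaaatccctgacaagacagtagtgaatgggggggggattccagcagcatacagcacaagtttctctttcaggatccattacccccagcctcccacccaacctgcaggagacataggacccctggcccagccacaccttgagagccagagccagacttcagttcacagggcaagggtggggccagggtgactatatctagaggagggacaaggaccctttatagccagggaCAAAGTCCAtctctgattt
Apoa4: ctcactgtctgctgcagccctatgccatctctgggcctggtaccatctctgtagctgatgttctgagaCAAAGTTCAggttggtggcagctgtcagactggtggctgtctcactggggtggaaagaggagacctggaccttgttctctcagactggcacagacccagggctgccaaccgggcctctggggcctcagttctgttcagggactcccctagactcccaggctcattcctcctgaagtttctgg
Cdhr2: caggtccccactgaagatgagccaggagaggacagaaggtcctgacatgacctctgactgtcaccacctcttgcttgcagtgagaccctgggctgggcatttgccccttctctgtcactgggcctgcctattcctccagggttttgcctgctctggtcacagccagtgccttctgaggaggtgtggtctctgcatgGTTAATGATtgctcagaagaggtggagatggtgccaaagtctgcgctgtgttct
The matches begin 43 bases before the start in Sis (TTTATG), 19 in Alpi (CAAAGTCCA), 182 in Apoa4 (CAAAGTTCA) and 54 in Cdhr2 (GTTAATGAT).

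The letters searched, on both strands, were settled after other spellings had been tried with the sequences in view, so the shares are descriptive. CAAAGTNCA, an Hnf4 type element, stood in 5 of 28 promoters (17.9%; Alpi, Apoa4, Fabp2, Rbp2 and Treh), against 1.19% of all 32851 promoters. GTTAATNAT, an Hnf1 type element, stood in 2 (7.14%; Cdhr2 and Slc26a3), against 0.737%. TTTATG, a Cdx type element, stood in 4 (14.3%; Cdhr5, Fabp1, Lct and Sis), against 10.8%. The TATA box letters TATAAA stood in 9 (32.1%), against 12.4%; read on the other strand it shares TTTAT with the Cdx letters, and overlaps were not removed. A match is not a site of binding, and the arrays measured no factor on DNA.

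Organoids with 4-OHT were then set against organoids without it, which asks what the switch did to enterocyte genes in intestinal cells. With 1 array per arm there is no test, and the values describe 2 cultures. After quantile normalization 27 of 33 genes had a lower value with 4-OHT, beside 10506 of all 19938 genes. The median difference was -0.26 for the 33, against -0.02 for all genes. Enpep alone was at least 2-fold lower, at 10.06 with 4-OHT against 11.42 without, and 0 genes were at least 2-fold higher, beside 0.627% of all genes lower and 1.70% higher by that rule.

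These signs depend on how the arrays are scaled. With values as deposited the median of the 33 was -0.43 and that of all genes -0.45. With each array centred on its own median these were 0.19 and 0.18, and 10 of 33 genes were lower in value. Bright and dim genes shift differently between the scalings, and 28 of the 33 are among the bright genes. Set against the median of the 5435 genes with a mean organoid level of 10 or more, a limit chosen after the data were seen, the 33 genes had medians of -0.27 after quantile normalization, -0.29 as deposited and -0.29 after centring. Centring moves all genes of an array alike, so the last 2 sets of relative values are the same by construction and only 2 scalings are compared. On that footing 26 genes lay below the bright genes both after quantile normalization and as deposited, and 6 lay above in both (Dpp4, Mep1b, Anpep, Lct, Mgam and Vil1). The values below are quantile normalized differences, 4-OHT minus no 4-OHT.

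Transporters were lower in all 6 cases, with a median of -0.43. Slc6a19 was at 9.36 with 4-OHT against 10.29 without and Slc26a3 at 10.07 against 10.99, differences of -0.93 and -0.92. The sugar transporters moved less, with Slc2a2 at -0.45, Slc2a5 at -0.41 and Slc5a1 at -0.26. Slc15a1 was at -0.39.

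Lipid genes had a median of -0.27 and were lower in value in 11 of 11, although Apob, at 11.72 in both arms, was level. Mogat2 was at 11.55 with 4-OHT against 12.40 without (-0.85), Dgat2 at 11.14 against 11.77 (-0.63) and Dgat1 at 12.12 against 12.55 (-0.43). Of the apolipoproteins, Apoc3 was at -0.63, while its chromosome neighbours Apoa1 and Apoa4 were at -0.11 and -0.28. Fabp1 and Fabp2 were at -0.26 and -0.21.

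Disaccharidases were split, with a median of -0.18. Treh was at 9.20 with 4-OHT against 9.75 without (-0.55), Sis at -0.27 and Mgam at 0.04, while Lct was at 9.52 against 8.86, or 0.67 higher. Lct thus had the highest difference of the 33, Enpep the lowest. Peptidases were likewise split: Anpep was 0.59 and Mep1b 0.35 higher, Dpp4 was at 0.11 and Mep1a at -0.11, and Enpep was at -1.36. The 4 structural genes ran from -0.26 to 0.12. Khk was at 10.93 against 11.80 (-0.87) and Amn at 9.25 against 9.98 (-0.74).

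Under all 3 scalings, without reference to other genes, 10 genes were lower in value (Enpep, Treh, Apoc3, Dgat2, Mogat2, Slc15a1, Slc6a19, Slc26a3, Khk and Amn) and 3 higher (Mep1b, Anpep and Lct). The share of all genes with such signs was not computed. Beside these members, all 6 stem cell markers were above the bright gene median, with list medians over it of 0.40 after quantile normalization and 0.47 as deposited, and the epithelial markers were near it, at 0.02 and 0.05. Sugar and intermediary metabolism genes were below it in 7 of 7 cases, with Maob at 9.83 with 4-OHT against 11.37 without. Among further transporters Slc1a1 was at 9.48 against 10.58, while Cubn, the partner of Amn in vitamin B12 uptake, was at 7.63 against 6.33. Whether the share of stem cells or of enterocytes differed between the cultures was not tested.

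**Figure D3:**
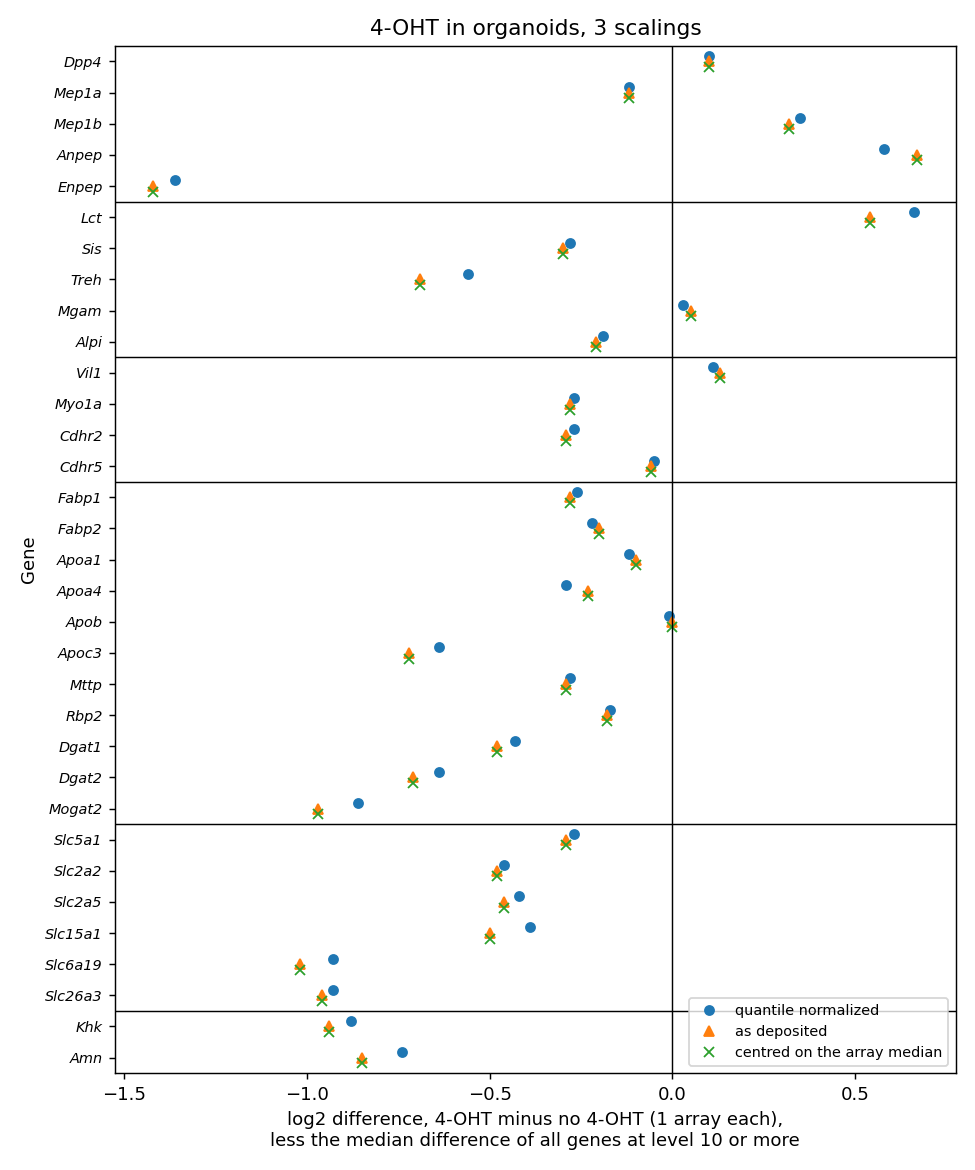
Difference in log2 intensity between the organoid array with 4-OHT and that without for each gene, less the median difference of all genes at a mean organoid level of 10 or more, under 3 scalings (1 array per arm, no error). Most points lie left of 0; the deposited and centred points coincide by construction, because centring moves all genes alike. Enpep is farthest left and Anpep and Lct farthest right.

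The same agent was used in #45-derived MEFs, at another dose and with 2 arrays per arm. Without pairing, limma called 0 of 33 members and 0 of 19938 genes (0% in each direction). In that fit 591 genes and 0 of the 33 had an unadjusted p under 0.05. With arrays of the same number as a block, limma called 31 genes and 0 of the 33. Enpep was the member with the largest difference. It was at 7.53 and 8.54 with 4-OHT, against 8.09 and 9.58 without, and the arms overlapped (-0.80 ± 0.61; adjusted p = 1.00). Within the numbered pairs it was lower by value in both, at -0.57 and -1.04. In the blocked limma fit its difference was -0.80 ± 0.13 (adjusted p = 0.0977). The other members in MEFs had differences from -0.32 to 0.22. Of the 33, 28 were below the array median on all 6 MEF arrays, against 45% of all genes. The second pair had 19.2% of deposited intensities in common between its arms.

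The pluripotent arrays show which of these genes gave a signal above the array median in those samples. In 21 of the 33 the level was below the array median on all 10 arrays, against 42.1% of all genes. These 21 include Sis, Mgam, Alpi, Fabp1, Fabp2, the apolipoproteins, Slc26a3 and Slc6a19. Only Anpep, Dgat1 and Dgat2 were above the median on all 10, against 42.1% of all genes. These 3 were also above it on all 6 MEF arrays. A further 9 genes were above it on some pluripotent arrays: Dpp4 and Mogat2 on 8, Mep1b and Slc15a1 on 5, Amn on 3, Mttp on 2, and Enpep, Slc5a1 and Khk on 1 each.

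RTCs were compared with the Apc Min/+, Apc +/+ and undoxed S33 ESCs, which asks whether the reprogrammed cells share features with pluripotent cells. Of the 33, 5 genes were higher in RTCs and 0 lower (limma, adjusted over all genes), beside 2.02% of all genes higher and 1.99% lower. They were Dpp4, Mep1b, Slc15a1, Myo1a and Vil1. The median over the 33 was 0.08, against -0.02 for all genes.

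Dpp4 was at 9.50, 9.83 and 9.90 in RTCs 1, 2 and 3, against 8.18, 8.15 and 8.48 in Min/+, +/+ and undoxed S33 ESCs. All RTC arrays were above all ESC arrays, by 1.47 ± 0.16 (SE; adjusted p = 0.00358), and this was the call that held when any single array was left out. Mep1b was at 8.54, 9.10 and 9.03 in RTCs, against 7.83, 7.89 and 6.75 in the same ESCs, a difference of 1.40 ± 0.31 (adjusted p = 0.0482). Slc15a1 was at 9.00, 8.55 and 8.95, against 8.04, 7.86 and 8.24 (0.79 ± 0.17; adjusted p = 0.0416).

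Vil1 and Myo1a rose by less and at levels below the array median. Vil1 was at 7.56, 7.74 and 7.65 in RTCs against 6.93, 7.01 and 7.15 in ESCs (0.62 ± 0.12; adjusted p = 0.0350), and Myo1a at 7.47, 7.51 and 7.25 against 6.58, 6.81 and 6.91 (0.65 ± 0.14; adjusted p = 0.0473). Again no RTC array overlapped an ESC array. Mogat2, at 10.04, 9.85 and 9.83 in RTCs, differed from Min/+ and +/+ ESCs at 8.19 and 8.11 but less from undoxed S33 ESCs at 9.52, and the difference of 1.30 ± 0.34 missed the threshold (adjusted p = 0.0830). It was 1.75 (adjusted p = 0.000682) without the S33 array.

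Leaving out 1 array at a time left 1 to 6 members called higher. Without both RTC 2 and RTC 3, in which markers of endoderm and immune cells were high, 0 members and 33 of all genes were called, and Dpp4 differed by 1.23 (adjusted p = 0.112). That fit leaves 1 RTC array, which is assumed to vary like the ESC arrays, so its lost calls say nothing of stability. Mean endoderm marker levels were 8.10, 9.18 and 8.92 in RTCs 1, 2 and 3, against 8.27, 8.08 and 8.02 in Min/+, +/+ and undoxed S33 ESCs; of the 11 measured endoderm markers Cited1 alone was called, by 2.19 ± 0.21. Among 6 immune markers, Lyz2 (2.87 ± 0.55), Tyrobp (1.55 ± 0.34) and Cd3e (1.47 ± 0.20) were called higher. Fibroblast markers averaged 9.50, 10.03 and 9.90 in RTCs 1, 2 and 3, against 10.84, 10.84 and 9.60 in Min/+, +/+ and undoxed S33 ESCs. All 8 fibroblast markers and all 7 epithelial markers were lower in value in RTCs, and 0 of either list were called. The part of other cell types in these differences was not tested.

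Regulators of the enterocyte programme moved beside the members: of 13 measured, Cdx1 (1.90 ± 0.26), Cdx2 (1.58 ± 0.23) and Hnf4a (1.00 ± 0.15) were higher in RTCs and Prdm1, a repressor of maturation genes in the suckling gut, was lower (-0.69 ± 0.13). Of 10 measured further brush border enzymes, Ace (1.48 ± 0.25) and Ada (0.59 ± 0.12) were higher and Enpp3 (-3.45 ± 0.18) lower. Of 20 further transporters, Slc1a1 (1.32 ± 0.16) and Slc7a8 (1.10 ± 0.24) were higher and Slc40a1, the iron exporter ferroportin, was lower (-2.05 ± 0.27). Of the other 2 metabolic lists, 1 gene each fell, Acsl5 (-1.17 ± 0.14) and Fbp1 (-0.78 ± 0.17), and none of 12 structural genes was called. Adjusted p over all genes was under the threshold of 0.05 for each of these in limma.

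**Figure D4:**
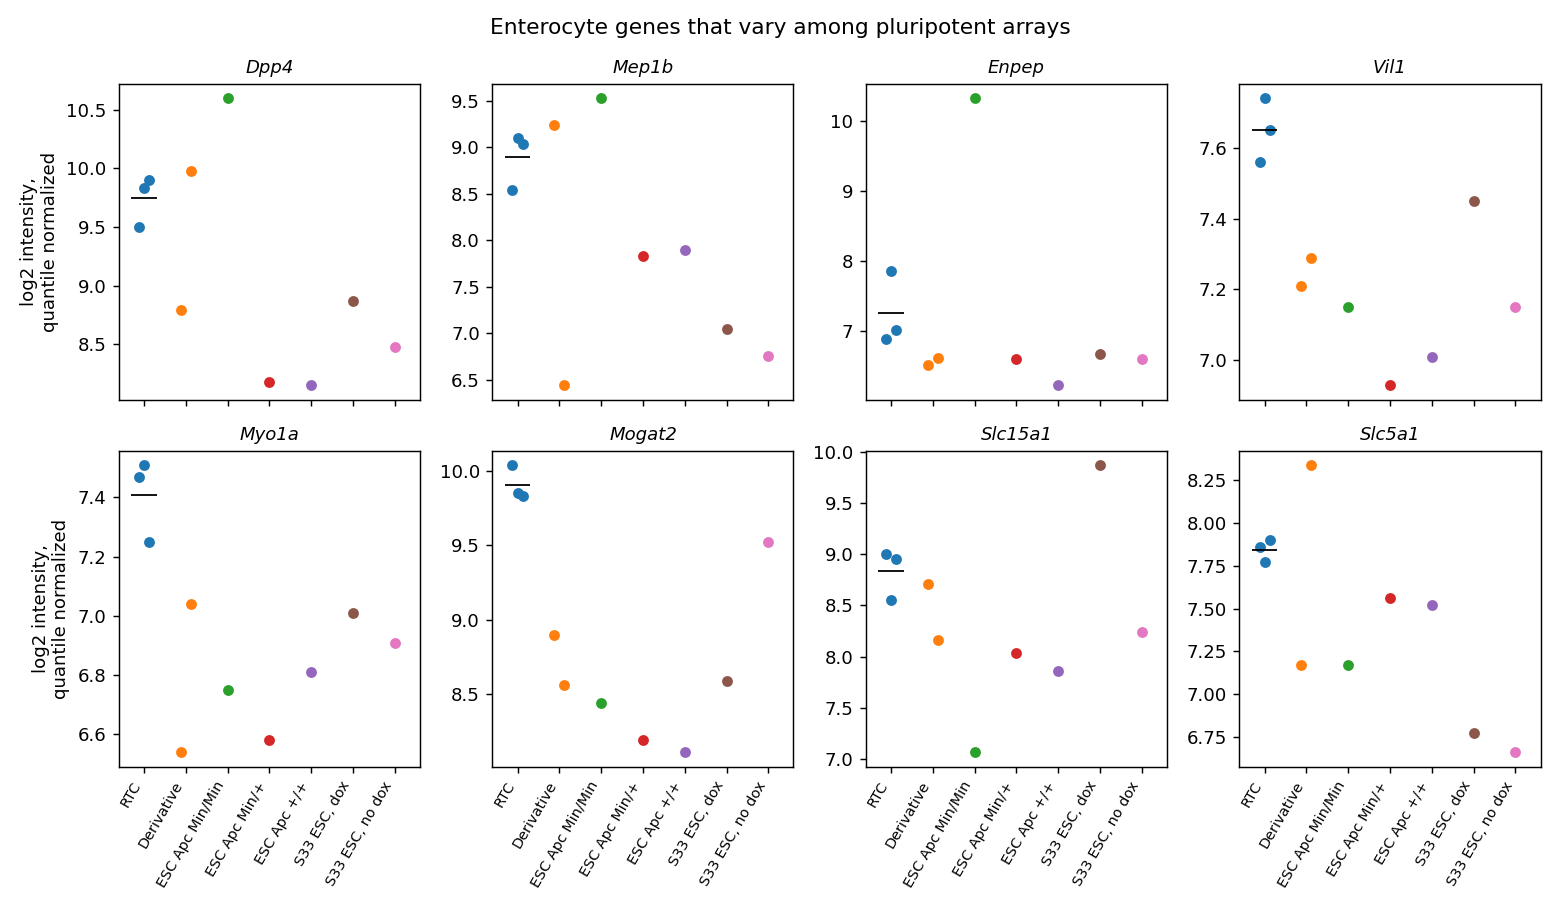
Levels (log2 intensity, quantile normalized) of 8 enterocyte genes on the 10 pluripotent arrays, 1 point per array, with a line at the mean of the 3 RTC arrays. In all 8 panels the RTC points lie above those of the Min/+, +/+ and undoxed S33 ESCs, although only Dpp4, Mep1b, Slc15a1, Vil1 and Myo1a were called. The 8 genes were picked by hand from the 33, so their shared direction is not a result about the set. Of all 33, 20 were higher in value in RTCs than in these ESCs and 13 lower. The Min/Min ESC is highest in Dpp4, Mep1b and Enpep, and the S33 ESC with dox is highest in Slc15a1. The vertical axes differ between panels and do not start at 0.

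RTCs were also set against their own derivatives #45 and #9. Mogat2 was the single member called, at 10.04, 9.85 and 9.83 in RTCs against 8.90 and 8.56 in the derivatives (1.18 ± 0.17; adjusted p = 0.0354), beside 0.497% of all genes higher and 0.466% lower. In a fit blocked by parental line, which pairs RTC 1 with #45 and RTC 3 with #9, the difference was 1.21 ± 0.22 and the call was lost (adjusted p = 0.0849). It was also lost without any 1 of the RTC arrays or without #9, at adjusted p from 0.0939 to 0.192, and with values as deposited (adjusted p = 0.136). Dpp4 did not follow the split, with derivative #45 at 8.79 and derivative #9 at 9.98, above every RTC array. Cdx2 (1.77 ± 0.26; adjusted p = 0.0345), Cdx1 and Elf3 (1.46 ± 0.20), an epithelial factor, were higher in RTCs, while 0 other members were called.

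Apc Min/Min ESCs were set against Apc +/+ ESCs, 1 array each and with no test. Of the 33, 3 genes, all peptidases, were at least 2-fold higher and 0 lower, beside 2.86% of all genes higher and 3.55% lower. Enpep was at 10.33 in Min/Min against 6.22 in +/+ (4.11), Dpp4 at 10.60 against 8.15 (2.45) and Mep1b at 9.53 against 7.89 (1.64). Min/+ ESCs, at 6.60, 8.18 and 7.83 for the same genes, were near the +/+ array. Sis, Alpi, Fabp1 and Slc5a1 were not among the changed genes, at 5.39, 6.49, 4.98 and 7.17 in Min/Min against 5.46, 6.64, 4.99 and 7.52 in +/+. These 4 are dim on both arrays, which had 17.3% of all deposited intensities in common.

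Other genes of absorption went both ways. Of 20 further transporters 3 were at least 2-fold higher and 1 lower, of 10 measured further enzymes 2 were higher and 1 lower, and of 12 measured further lipid genes 0 were higher and 1 lower. S100g, a calcium carrier, was at 10.39 in Min/Min against 7.05 in +/+, Cubn at 10.74 against 7.83 and the phosphate transporter Slc34a2 at 8.58 against 6.39. Enpp3 was at 8.75 in Min/Min against 12.02 in +/+ (-3.27), Slc40a1 at 7.22 against 9.20 (-1.99) and Acsl5 at 7.98 against 9.52 (-1.55). Gata4 (11.60 against 8.07) and Cdx2 (9.48 against 7.04) were high among the regulators. The endoderm markers averaged 9.74 in Min/Min against 8.08 in +/+, and 8 of 11 were at least 2-fold higher, with Sox17 at 10.93 against 6.70. Their part in the result was not tested. Genotype cannot be told apart from the FGF4 medium that the growth protocol names for Min/Min ESCs.

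In S33 cells, dox against no dox was likewise 1 array per arm with no test. In S33 ESCs, Slc15a1 was at 9.87 with dox against 8.24 without (1.63), the single member at least 2-fold higher, and 0 were lower, beside 0.632% of all genes higher and 1.32% lower. Mogat2 was at 8.59 against 9.52 (-0.93) and Anpep at 11.07 against 10.26 (0.81). The endoderm marker mean was 8.67 with dox against 8.02 without, and Cubn was at 10.40 against 7.82. Fibroblast markers averaged 8.80 with dox against 9.60 without, and epithelial markers 10.36 against 11.14. All 8 fibroblast and all 7 epithelial markers were lower in value with dox, 3 of each list at least 2-fold. The part of other cell types in the S33 ESC differences was not tested. In S33 MEFs, Enpep was at 6.86 with dox against 8.80 without (-1.94), the single member at least 2-fold lower, and 0 were higher, beside 2.26% of all genes lower and 1.49% higher. Dpp4 was at 6.95 against 7.78 (-0.83), and Slc15a1, at 6.04 against 6.20, stayed dim.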

How the data were processed

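RNA of 18 mouse samples was measured on 1 single-colour array each. The deposited intensity per probe set (28856 probe sets, 3 without values) is linear, and its median per array ran from 142 to 317; the authors' background correction, summary and scaling are not given in the sources used here. Up to 19.2% of intensities were identical between some arrays. Separately scaled sets may be the origin, which was not tested, and the 18 arrays were put on a common log2 scale by quantile normalization, although the design had assumed comparable values. Platform annotation paired 21789 probe sets with 1 symbol, 1621 with several and 5443 with no symbol; RefSeq (GRCm38.p6) held 21698 Entrez identifiers and altered 0 symbols. Each of the 19938 genes was read from its brightest probe set on average. Groups follow the sample titles.

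Replicated comparisons used limma 3.58.1 in R 4.3.3 (lmFit, eBayes, two-sided), Benjamini-Hochberg adjusted over all genes with no filter on dim genes, called at 0.05; single arrays were called at 2-fold. On simulated data with independent noise, 99.0% of genes changed by 2 log2 units were recovered for organoids against MEFs and 98.0% for RTCs against ESCs, each over 19938 genes. False calls made up 5.26% and 3.92% of calls. The largest member difference of RTCs against ESCs was 1.47, so this recovery does not cover changes of that size. Tables and figures used Python 3.11.15. The members and lists were chosen with earlier results of these data known. Every member may be named; other lists name up to 4 called genes with the largest differences, with Sox17, Olfm4, Lgr5 and other markers given as checks, chosen after their values were seen. The number of arrays limits the precision.

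RTCs and derivatives are paired by line of origin in the labels: deviations of RTC 1 with #45 and RTC 3 with #9 correlated at 0.09 and 0.03. Deviations of RTC 2, of which no derivative was measured, correlated with #9 at 0.10, so these values show no pairing by line. Alternatives were deposited scaling, median centring, a filter on dim genes, mean probe sets, single arrays left out, blocks and other fold limits.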

Additional observations from a re-analysis of the deposited data

Results flagged for a closer look

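Enpep and Slc15a1 had dox differences of opposite sign in S33 MEFs and S33 ESCs. Enpep was -1.94 (6.86 with dox against 8.80 without) in MEFs and 0.07 (6.66 against 6.59) in ESCs. Slc15a1 was 1.63 (9.87 against 8.24) in ESCs and -0.16 (6.04 against 6.20) in MEFs. With 1 array per arm, neither difference between the cell types was tested.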

How the results depend on the processing

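In organoids against MEFs, members called higher numbered 31 to 33 and calls over all genes 7130 to 8370 when 1 array was left out. Against derivatives these were 28 to 33 and 2447 to 4837, and 7687 genes were called against 8 pluripotent arrays. For RTCs against ESCs, genes called were 799, 377 as deposited, 33 without RTC 2 and RTC 3 and 246 to 1227 with 1 array left out; members higher were 5, 3 as deposited, 3 with dim genes filtered, 0 without RTC 2 and RTC 3 and 1 to 6 with 1 left out, and members lower were 0 to 1 (Mttp, -0.66, adjusted p = 0.0318, without the S33 ESCs). Filtering dim genes leaves Vil1 and Myo1a untested by construction. For RTCs against derivatives, genes called were 192, 124 as deposited, 67 with the replicate block for line of origin, 0 without RTC 2 and RTC 3 and 14 to 332 with 1 left out; members higher were 1, 0 as deposited, 0 with the block, 0 without RTC 2 and RTC 3 and 0 to 2 with 1 left out. The block changed no other call among members.

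MEFs with and without 4-OHT gave 0 calls, and 31 genes with arrays of the same number as a replicate block (0 members). Deviations of same-numbered arrays correlated at 0.77, but 2 pairs only share a number. In organoids with 4-OHT, 2-fold genes numbered 464, 2849 as deposited, 702 after centring, 275 with dim genes filtered and 2315 at 1.5-fold. Members 2-fold higher were 2 after centring and 2 at 1.5-fold (Anpep and Lct), and members 2-fold lower 5 as deposited (Enpep, Mogat2, Slc6a19, Slc26a3 and Khk), 0 after centring and 8 at 1.5-fold. The median of the members was -0.43 as deposited and reversed to 0.19 after centring, with 10 members lower in value. At 1.5-fold, Min/Min against +/+ ESCs gave 3687 genes and 2 members lower (Slc2a5 and Slc15a1), S33 ESCs 1290 genes, 2 members higher (Slc15a1 and Anpep) and 1 lower (Mogat2), and S33 MEFs 1951 genes and 2 members lower (Enpep and Dpp4). Of 748 recomputed values of called members, 51 lost the call (in 12 of 71 calls) and 0 reversed. The causes were not tested. Organoid 4-OHT, Min/Min and S33 values rest on single arrays per arm. Without RTC 2 and RTC 3 only 1 RTC array is left, assumed to vary like the other group.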

Other observations

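Enpep differed by value in several contrasts. It was lower in value with 4-OHT in organoids (10.06 against 11.42), lower with 4-OHT in both pairs of #45-derived MEFs (7.53 against 8.09 and 8.54 against 9.58) and lower with dox in S33 MEFs (6.86 against 8.80), while the Min/Min ESC array at 10.33 stood above every other array outside the organoids. S33 ESCs, at 6.66 with dox and 6.59 without, differed by 0.07. The organoid and S33 values are single arrays, and the MEF difference with 4-OHT missed the threshold with limma (adjusted p = 1.00) and with the pairs as a block (-0.80 ± 0.13; adjusted p = 0.0977).

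Slc2a5, the fructose transporter, was lower in Min/Min ESCs at 7.03 than in +/+ ESCs at 7.70 and Min/+ ESCs at 8.10, and Slc5a1 was at 6.77 and 6.66 in S33 ESCs with and without dox, against 7.17 to 8.34 on the other 8 pluripotent arrays. Derivatives #45 and #9 differed from each other in Mep1b (9.24 and 6.44), Dpp4 (8.79 and 9.98) and Slc5a1 (7.17 and 8.34), with 1 array per line.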
